A study of Homo sapiens with 2 samples.

Results

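Sites of ZFX on chromosomes 4, 13 and 18, the 3 autosomes with the fewest protein-coding genes per Mb, were described from chromatin immunoprecipitation and sequencing (ChIP-seq) of DAOY cells, a human cell line established from a medulloblastoma, a tumour of the cerebellum. All peaks that the authors listed on these chromosomes were taken, 730 of the 14471 peaks of the list (5.04%). Chromosome 4 carried 370 of them, chromosome 13 carried 209 and chromosome 18 carried 151. They were set beside the 2284 peaks of the gene-rich chromosomes 17, 19 and 22, which carried 942, 975 and 367.

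The study held 2 samples of DAOY cells, for which the labels name no treatment. A rabbit polyclonal antibody raised against Zfx was used to precipitate sheared chromatin for the ZFX sample, and chromatin sheared but not precipitated gave the input. All peaks come from the single ZFX library (n = 1), without replicates, so chromosomes are set side by side with no test between them, and values of the input were not used here. Intervals below are exact 95% intervals (Poisson for rates, Clopper-Pearson for shares) that cover counting error only and treat peaks as independent, although many peaks lie in close pairs. Read depth is unknown.

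ZFX, whose gene lies on the X chromosome, is a transcription factor with zinc fingers that is known to bind mostly at promoters in CpG islands. Chromosomes 4, 13 and 18 are known for large late-replicating, gene-poor domains, and chromosome 18 tends to lie at the edge of the nucleus, whereas the gene-rich chromosome 19 lies towards its centre. Chromosomes 13 and 22 are acrocentric, with a short arm of repeated sequence, so the first peak of each lies on the long arm.

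Peaks were sparse on all 3 gene-poor chromosomes. Per Mb of the span from the first to the last peak, chromosome 4 had 1.94 peaks (1.75 to 2.15), chromosome 13 had 2.20 (1.91 to 2.52) and chromosome 18 had 1.94 (1.65 to 2.28). Chromosome 17 had 11.6 (10.9 to 12.4), chromosome 19 had 16.6 (15.6 to 17.7) and chromosome 22 had 10.9 (9.80 to 12.1). The intervals of the 3 gene-poor chromosomes overlap one another and lie below those of all 3 gene-rich ones. Together, chromosomes 4, 13 and 18 had 2.01 peaks per Mb, against 13.2 on chromosomes 17, 19 and 22, a ratio of 0.152. The other 16 autosomes lay in between, from 2.70 on chromosome 8 to 7.38 on chromosome 14.

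The genes themselves are also sparse there. Divided by the span of the peaks, chromosomes 4, 13 and 18 have 4.03, 3.56 and 3.47 protein-coding genes per Mb, against 14.5, 24.7 and 13.4 on chromosomes 17, 19 and 22. Relative to genes, the distance between the 2 sets was smaller. Chromosome 4 had 48.1 peaks per 100 genes (43.3 to 53.2), chromosome 13 had 61.8 (53.7 to 70.8) and chromosome 18 had 55.9 (47.4 to 65.6). Chromosome 17 had 80.6 (75.5 to 85.9), chromosome 19 had 67.2 (63.0 to 71.5) and chromosome 22 had 81.4 (73.3 to 90.1). The interval of chromosome 4 lay below those of the 3 gene-rich chromosomes, while those of chromosomes 13 and 18 overlapped that of chromosome 19. Peaks per 100 genes were 53.0 (49.2 to 57.0) over the gene-poor set and 74.4 (71.4 to 77.5) over the gene-rich set, a ratio of 0.712 where the ratio of genes per Mb was 0.214. The other 16 autosomes ranged from 55.1 on chromosome 8 to 105.1 on chromosome 14, so low values were not limited to the gene-poor set. Chromosomes 8, 11 and 16, with 55.1, 57.7 and 57.4, lay below chromosome 13, and chromosome X was lowest with 20.9. The number of copies of each chromosome in DAOY was not measured here, so fewer copies and fewer bound sites per copy cannot be told apart.

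**Figure D1:**
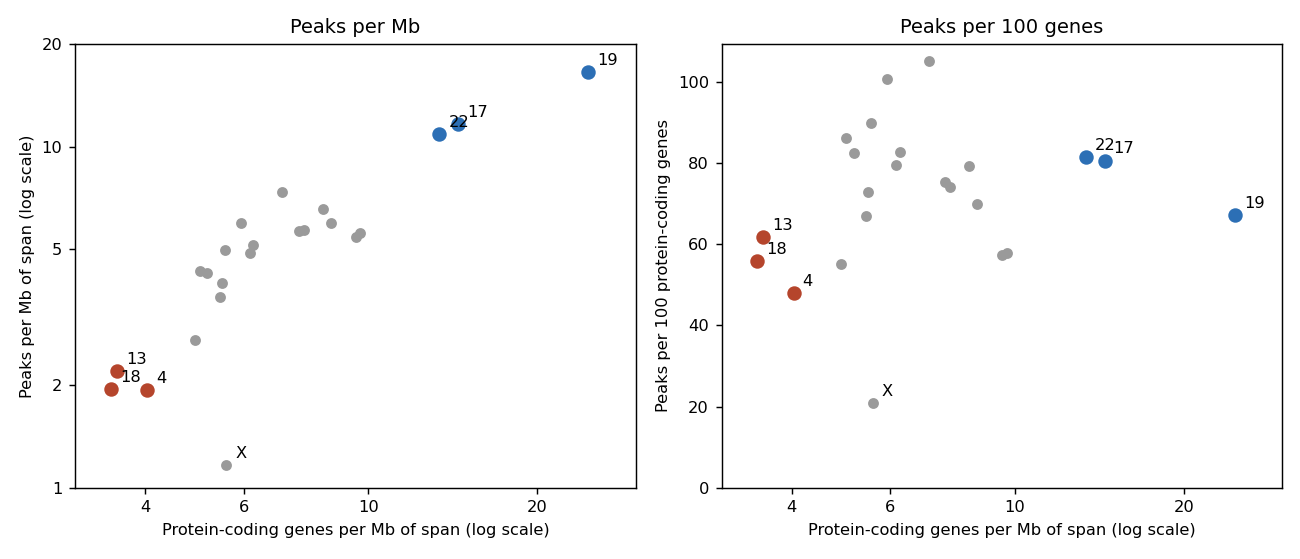
Left, ZFX peaks per Mb, and right, ZFX peaks per 100 protein-coding genes, each against protein-coding genes per Mb of the peak span, for 22 autosomes and chromosome X (1 point each; red, chromosomes 4, 13 and 18; blue, chromosomes 17, 19 and 22; grey, the others). The red points lie at the lower left in the left plot, at 1.94 to 2.20 peaks per Mb, and at 48.1 to 61.8 peaks per 100 genes in the right plot, where the range of the blue points is 67.2 to 81.4.

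Along the chromosomes, long empty parts alternated with short groups of peaks. The median 1 Mb window held 1 peak on each of chromosomes 4, 13 and 18, against 9 on chromosome 17, 15.5 on chromosome 19 and 10 on chromosome 22. No peak fell in 85 of 191 windows of chromosome 4 (44.5%), 39 of 96 of chromosome 13 (40.6%) and 33 of 78 of chromosome 18 (42.3%). On chromosomes 17, 19 and 22, 6 of 82 windows (7.32%), 4 of 60 (6.67%) and 1 of 35 (2.86%) were empty. The windows that did hold a peak also held fewer, with means of 3.49, 3.67 and 3.36 peaks on chromosomes 4, 13 and 18 and of 12.4, 17.4 and 10.8 on chromosomes 17, 19 and 22. Compared with chromosomes 17, 19 and 22, the gene-poor chromosomes thus had more empty windows and fewer peaks in the windows that were not empty. On the other 16 autosomes, the highest share of empty windows was 32.6%, on chromosome 9. Their lowest mean in windows with a peak was 3.79, on chromosome 8, close to the gene-poor chromosomes. Chromosome X went further in both measures, with 53.6% of windows empty and a mean of 2.49 peaks in windows with a peak.

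Each gene-poor chromosome had its own profile. On chromosome 4 the first 10 Mb, the tip of the short arm, held 95 of 370 peaks (25.7%), and no other 10 Mb bin held more than 26, the count between 180 and 190 Mb. The bins from 60 to 70 Mb and from 130 to 140 Mb held 3 peaks each. The richest windows of chromosome 4 lay between 1 and 2 Mb with 19 peaks, between 2 and 3 Mb with 16 and between 6 and 7 Mb with 11. The median score in the window from 2 to 3 Mb was 246.7, against 94.0 over the whole chromosome.

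On chromosome 13 peaks gathered towards both ends of the long arm. Between 20 and 30 Mb lay 50 of 209 peaks (23.9%) and between 110 Mb and the last peak lay 33 (15.8%). In the middle, the bins from 60 to 70, 70 to 80 and 80 to 90 Mb held 4, 10 and 3 peaks. The richest window, from 111 to 112 Mb, held 14 peaks with a median score of 77.3, and the windows from 21 to 22 Mb and from 31 to 32 Mb held 10 each. The last of these had no strong peak, with a highest score of 134.1.

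Chromosome 18 was the most even of the 3 in bins of 10 Mb, with 9 to 31 peaks per bin. Its bin with the most peaks, 31 (20.5%), lay between 40 and 50 Mb, inside the long arm and not at an end. Its richest windows lay at its last Mb, from 77 to 78 Mb, with 12 peaks and a highest score of 217.0, and from 12 to 13 Mb, with 11 peaks and a highest score of 527.7. The window from 33 to 34 Mb held 7 peaks, and none of them was within 1 kb of another.

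**Figure D2:**
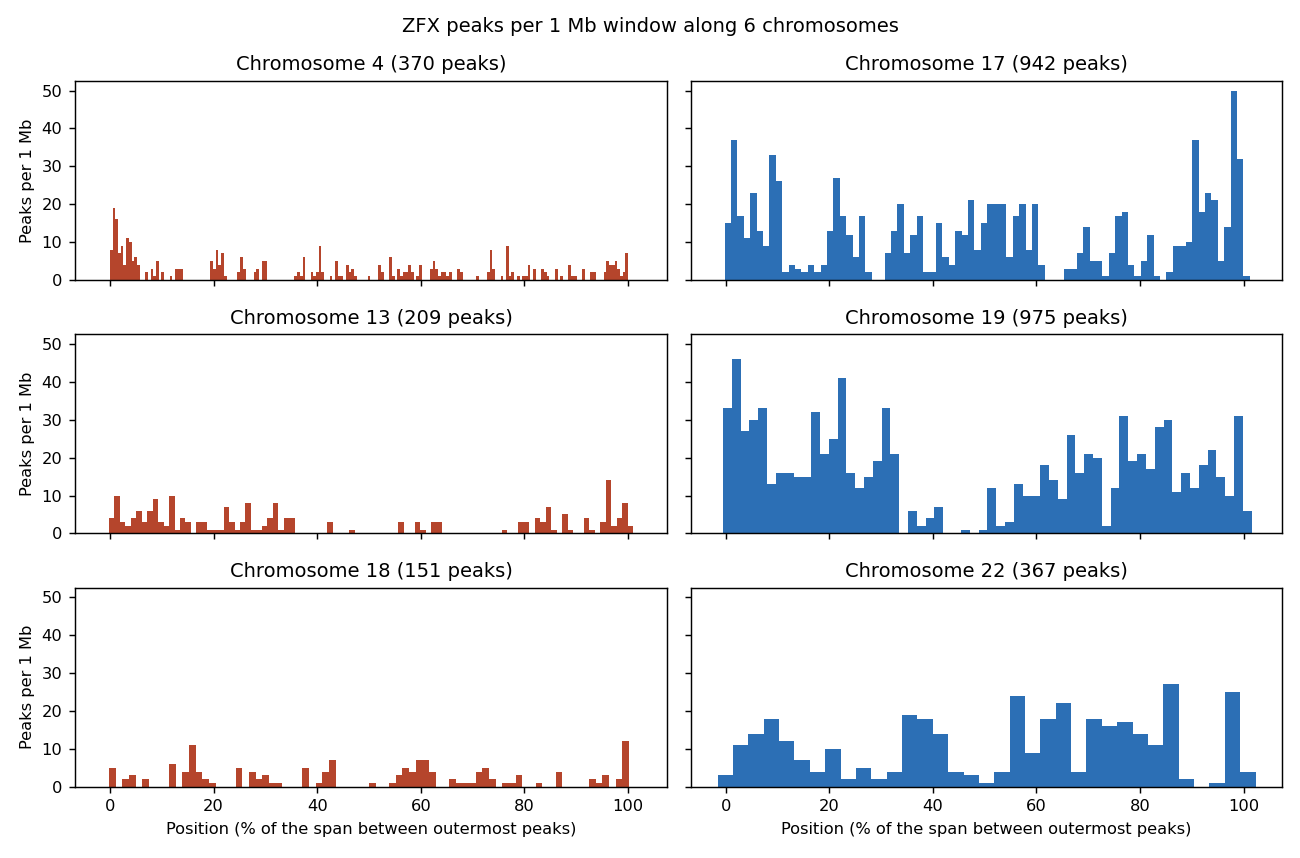
ZFX peaks per 1 Mb window (vertical axis, 1 scale for all panels) against position as a percentage of the span between the outermost peaks, for chromosomes 4, 13 and 18 on the left (red) and chromosomes 17, 19 and 22 on the right (blue). The highest windows hold 19, 14 and 12 peaks in the left panels, where white stretches without peaks recur, and 50, 46 and 27 peaks in the right panels.

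The ends of the chromosomes were examined as the first and last 5 Mb of each peak span. These zones held 77 of 370 peaks of chromosome 4 (20.8%, 16.8% to 25.3%), 59 of 209 of chromosome 13 (28.2%, 22.2% to 34.9%) and 28 of 151 of chromosome 18 (18.5%, 12.7% to 25.7%). On the gene-rich chromosomes the shares were 24.2% (21.5% to 27.1%) for chromosome 17, 27.9% (25.1% to 30.8%) for chromosome 19 and 33.2% (28.4% to 38.3%) for chromosome 22. Because the chromosomes differ in length, 10 Mb is 5.24% of the span of chromosome 4, 10.5% of chromosome 13 and 12.9% of chromosome 18, and 12.4%, 17.01% and 29.7% of chromosomes 17, 19 and 22. Relative to that length, the end zones of chromosome 4 were 3.97 times as rich as an even spread would make them, the highest value among 22 autosomes and chromosome X. The values were 2.68 for chromosome 13 and 1.44 for chromosome 18, against 1.96, 1.64 and 1.12 for chromosomes 17, 19 and 22, so the 2 sets overlapped in this measure. On chromosomes 13 and 22 the first zone lies at the start of the long arm beside the centromere and is no telomeric end.

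On chromosome 4 the 2 ends were unlike. The first 5 Mb held 59 peaks (15.9%, 12.4% to 20.1%) and the last 5 Mb held 18 (4.86%, 2.91% to 7.58%). The peaks of the first zone had a median score of 151.6 (quartiles 79.5 and 448.1) and 35 of 59 (59.3%, 45.7% to 71.9%) scored above the median of the whole list, 108.9. In the last zone the median score was 68.5 (quartiles 56.0 and 105.6) and 5 of 18 (27.8%, 9.69% to 53.5%) scored above it. The interior of chromosome 4 had a median of 91.0. Peaks at the short-arm tip of chromosome 4 were thus both more frequent and higher in score than those at its other end, although the intervals of the last 2 shares overlap.

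Chromosomes 13 and 18 had more peaks in the last 5 Mb than in the first. Chromosome 13 had 26 peaks in its first zone (12.4%) and 33 in its last (15.8%), with median scores of 104.9 and 78.0. Chromosome 18 had 10 (6.62%) and 18 (11.9%), with median scores of 141.0 and 104.9. The first zone of chromosome 18 held close to its share of the length, 6.43%, and its interval of 3.22% to 11.8% includes that value. The intervals of the 2 zones overlapped on both chromosomes.

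**Figure D3:**
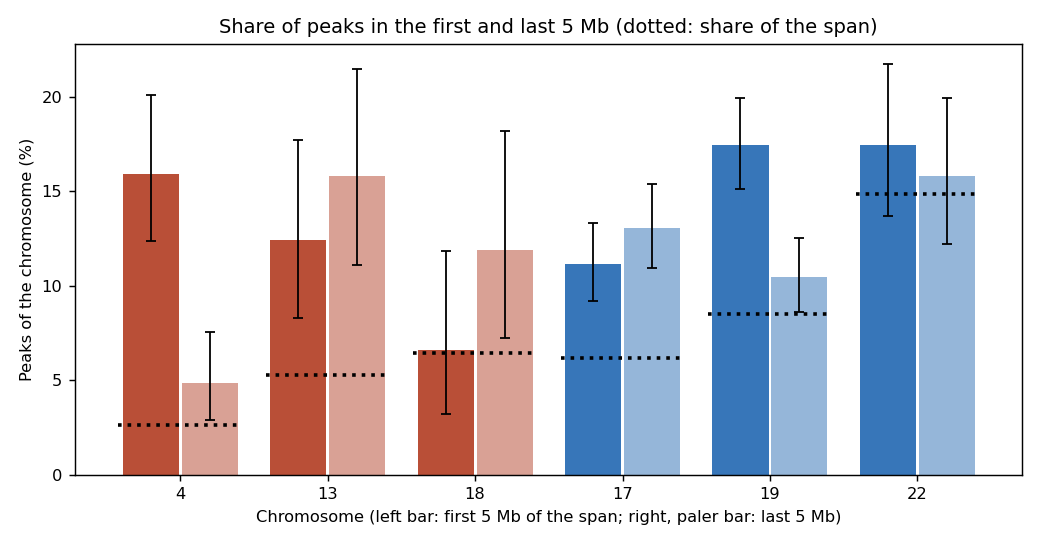
Share of each chromosome's peaks (%) in the first 5 Mb (left bar) and the last 5 Mb (right, paler bar) of the peak span, with exact 95% intervals for counting error, for chromosomes 4, 13 and 18 (red) and 17, 19 and 22 (blue). Dotted lines mark the share of the span that 5 Mb makes up. The left bar of chromosome 4, 15.9%, stands furthest above its dotted line, 2.62%, in relative terms.

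Peak-free stretches took up most of the gene-poor chromosomes. Stretches of at least 1 Mb between neighbouring peaks numbered 48 on chromosome 4, 18 on chromosome 13 and 20 on chromosome 18. They added up to 131.7 Mb (69.0% of the span), 56.2 Mb (59.3%) and 51.1 Mb (65.8%). Chromosomes 17, 19 and 22 had 10, 4 and 3 such stretches, which made up 21.1%, 13.3% and 14.5% of their spans. The share on the other 16 autosomes ranged from 26.2% on chromosome 15 to 58.6% on chromosome 8, close to chromosome 13, and chromosome X had 79.5%. Outside stretches of at least 1 Mb, the gene-poor chromosomes still had fewer peaks, 5.87 per Mb against 15.9 per Mb on the gene-rich ones. By this measure the other 16 autosomes together had 8.91 per Mb, nearer to the gene-poor set, with 6.53 on chromosome 8. Chromosome X had 5.68. No map of assembly gaps was used, so a stretch without peaks cannot be told apart from sequence to which reads could not be assigned.

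The longest stretch of the 3 chromosomes, 11.1 Mb, lay on chromosome 13. It began after a peak scoring 143.6 (80915079 to 80915732) and ended at a peak scoring 316.9 (91999947 to 92001308). The peak at its far end was, at 1362 bp, also the widest of the chromosome after the strongest one, and its nearest neighbour was 3.20 Mb away. The next stretches on chromosome 13 measured 8.65 Mb, between weak peaks scoring 53.3 and 56.8, and 7.51 Mb, between peaks scoring 144.2 and 159.0.

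Chromosome 4 had 2 stretches of almost equal length. The first, 10.5 Mb, lay between peaks at 57947546 to 57948106 (score 119.7) and 68410890 to 68411193 (score 84.2). The second, 10.4 Mb, lay between peaks at 26585559 to 26586043 (score 261.2) and 37003259 to 37003825 (score 223.7). The third measured 5.85 Mb and ended at a peak at 135122222 to 135122881, which had a score of 211.6 and no other peak within 4.81 Mb.

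The stretches of chromosome 18 were shorter. The longest, 5.64 Mb, lay between peaks at 33895748 to 33895962 (score 76.6) and 39535157 to 39535939 (score 195.9). The next, 4.21 Mb, was bordered on both sides by strong peaks, which scored 502.4 (67956304 to 67957152) and 412.4 (72163439 to 72164058). The third measured 3.99 Mb. On chromosomes 17, 19 and 22 the longest stretches were 4.16, 3.46 and 2.74 Mb, each shorter than the longest of chromosome 18. Length of the longest stretch did not set the gene-poor set apart from the rest of the list, since chromosome 18 ranked 14 and chromosomes 13 and 4 ranked 5 and 6 among 23 chromosomes. Of the 18 peaks that border the 3 longest stretches of each gene-poor chromosome, 12 scored above the median of the list and 6 scored under 100, with a range of 50.7 to 502.4.

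Neighbouring peaks were far apart. The median gap was 127.8 kb on chromosome 4 (quartiles 30.8 and 422.5 kb), 152.6 kb on chromosome 13 (35.6 and 405.5 kb) and 133.8 kb on chromosome 18 (34.3 and 488.7 kb). The gene-rich chromosomes 17, 19 and 22 had medians of 26.9 kb (4.18 and 79.7 kb), 21.8 kb (2.65 and 60.1 kb) and 30.1 kb (3.88 and 106.9 kb). The median over the gene-poor set was 5.32 times that over the gene-rich set, 133.1 kb against 25.02 kb. Medians on the other 16 autosomes ranged from 36.6 kb on chromosome 14 to 95.7 kb on chromosome 8. Chromosome X had a longer median gap than all 3 gene-poor chromosomes, 244.6 kb.

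Classes of gap length differed to unequal extents. Gaps of at most 1 kb made up 14.9% (11.4% to 18.96%) of those on chromosome 4, 15.4% (10.8% to 21.0%) on chromosome 13 and 14.0% (8.88% to 20.6%) on chromosome 18. On chromosomes 17, 19 and 22 their shares were 19.3% (16.9% to 22.01%), 21.0% (18.5% to 23.7%) and 18.03% (14.2% to 22.4%). These intervals overlap between each gene-poor and each gene-rich chromosome, but over the sets the share was lower on the gene-poor chromosomes, 14.9% (12.3% to 17.7%) against 19.9% (18.2% to 21.6%), without overlap. Gaps over 1 kb and up to 10 kb were rare on the gene-poor chromosomes, with 15 on chromosome 4 (4.07%, 2.29% to 6.62%), 10 on chromosome 13 (4.81%, 2.33% to 8.66%) and 5 on chromosome 18 (3.33%, 1.09% to 7.61%). On chromosomes 17, 19 and 22 this class held 13.3% (11.2% to 15.6%), 16.0% (13.8% to 18.5%) and 14.5% (11.0% to 18.5%), with no overlap between the sets. In both sets more gaps were at most 1 kb than between 1 and 10 kb, with 108 and 30 of 727 gaps on the gene-poor chromosomes and 453 and 334 of 2281 on the gene-rich ones. Gaps over 1 Mb made up 11.8% of the gaps in the gene-poor set and 0.745% in the gene-rich set.

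**Figure D4:**
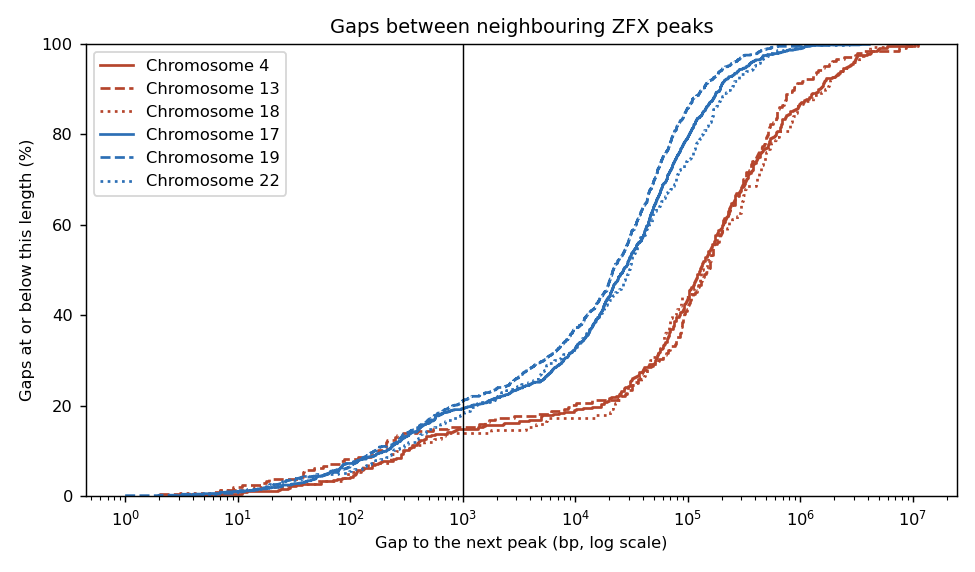
Cumulative share of gaps between neighbouring ZFX peaks (%) against gap length (bp, log axis), 1 line per chromosome (red, chromosomes 4, 13 and 18; blue, chromosomes 17, 19 and 22; vertical line, 1 kb). The red lines are nearly flat between 1 and 10 kb, where they gain 3.33% to 4.81% of gaps, while the blue lines gain 13.3% to 16.0%.

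Counted by peak, 107 of 370 peaks of chromosome 4 (28.9%, 24.3% to 33.8%) had a neighbour at most 1 kb away, as did 62 of 209 of chromosome 13 (29.7%, 23.6% to 36.4%) and 39 of 151 of chromosome 18 (25.8%, 19.1% to 33.6%). The shares were 36.0% (32.9% to 39.1%) on chromosome 17, 38.1% (35.0% to 41.2%) on chromosome 19 and 35.1% (30.3% to 40.3%) on chromosome 22. Over the sets, 28.5% (25.2% to 31.9%) stood against 36.7% (34.8% to 38.7%). The other 16 autosomes ranged from 24.5% on chromosome 15 to 39.4% on chromosome 21, so low shares were not limited to the gene-poor set. When such peaks were joined, the 730 peaks formed 622 regions, made up of 522 single peaks, 92 pairs and 8 groups of 3. No region on the gene-poor chromosomes or on chromosome 22 held more than 3 peaks, while the largest held 4 on chromosome 17 and 6 on chromosome 19. Regions of at least 3 peaks numbered 8 of 622 on the gene-poor and 55 of 1831 on the gene-rich chromosomes. The largest sizes are thus compared over unequal numbers of regions, and why they differ was not tested. Regions of more than 1 peak made up 16.1% of those on the gene-poor and 21.1% of those on the gene-rich chromosomes.

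The 8 regions of 3 peaks were spread over the 3 chromosomes. Chromosome 4 had 3 of them, all in its first 4 Mb, and the strongest covered 2594 bp (1241336 to 1243929) with a highest score of 551.2. Chromosome 13 had 2, with highest scores of 134.1 and 162.2, and chromosome 18 had 3, with highest scores of 68.3 to 148.8. At the other extreme, 12 peaks of chromosome 4, 4 of chromosome 13 and 5 of chromosome 18 had no other peak within 1 Mb, 21 of 730 (2.88%), against 3 of 2284 (0.131%) on the gene-rich chromosomes. Over the autosomes and chromosome X the share was 0.768%. Such lone peaks were as common on chromosome 8 (12 of 394, 3.05%) and more so on chromosome X (14 of 177, 7.91%). The strongest lone peak of the gene-poor set lay on chromosome 4 (22517036 to 22518083), 1048 bp wide with a score of 584.8 and 2.07 Mb from the nearest peak.

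Over the 3 gene-poor chromosomes together, close and isolated peaks had similar median scores, but single chromosomes departed from this. For the set, the median score was 98.7 for the 208 peaks with a neighbour at most 1 kb away, 96.6 for the 290 with the nearest at 1 to 100 kb, 102.4 for the 211 with the nearest at 100 kb to 1 Mb, and 95.01 for the 21 lone peaks. The share above the median of the list was 45.7%, 45.2%, 47.9% and 47.6% in these classes. The lower and upper quartiles of scores, such as 62.8 and 203.7 in the second class and 61.6 and 188.0 in the third, span far more than the differences between the medians. On chromosome 18 the 39 close peaks had a median of 80.5 (33.3% above the median of the list), against 120.9 (54.8%) for the 62 with the nearest at 1 to 100 kb and 110.9 (53.3%) for the 45 at 100 kb to 1 Mb. On chromosome 4 the close peaks had the higher median of the first 2 classes, 107.1 against 88.9. On chromosome 13 the 4 lone peaks had a median of 172.1 (quartiles 71.8 and 278.9), against 92.5 for the 82 at 1 to 100 kb. The 12 lone peaks of chromosome 4 had a median of 111.7, and the 5 of chromosome 18 had 68.8, the lowest of the classes there.

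Scores on the gene-poor chromosomes overlapped broadly with those on the gene-rich ones. The score is the authors' own, and its unit is not stated in the file. Medians were 94.0 on chromosome 4 (quartiles 63.2 and 202.7), 98.0 on chromosome 13 (62.0 and 169.1) and 108.1 on chromosome 18 (65.1 and 187.9). Those of chromosomes 17, 19 and 22 were 108.6 (65.6 and 227.2), 110.7 (65.6 and 230.5) and 101.4 (64.3 and 196.0). Chromosome 18 thus had a median within the range of the gene-rich chromosomes. Peaks above the median of the list made up 46.8% (41.6% to 51.98%), 43.5% (36.7% to 50.6%) and 48.3% (40.1% to 56.6%) on chromosomes 4, 13 and 18, and 49.6%, 50.5% and 46.6% on chromosomes 17, 19 and 22.

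At the top of the scale the sets were further apart. A score of 1000 or more was reached by 3 peaks of chromosome 4, 1 of chromosome 13 and 0 of 151 of chromosome 18. At 0 of 151 the exact upper limit of the share is 2.41%, and a limit of 3 counts of the total is 1.99%. Over the 3 chromosomes the share of peaks at 1000 or more was 0.548% (0.149% to 1.40%), against 45 of 2284 peaks (1.97%, 1.44% to 2.63%) on chromosomes 17, 19 and 22. These intervals do not overlap. Over the autosomes and chromosome X together, 301 of 14456 peaks (2.08%) scored 1000 or more. Among 23 chromosomes, chromosomes 18, 13 and 4 had the 3 lowest shares of such peaks. Chromosomes 8 and 16 (1.02% each) and chromosome X (1.13%) came next, not far above chromosome 4 (0.811%, 0.168% to 2.35%). The score of 3100, where scores of the list pile up, was reached by 0 of the 730 peaks, for which the exact upper limit is 0.504% and a limit of 3 counts is 0.411%, and by 9 of the 2284 (0.394%, 0.180% to 0.747%). Over the whole list 31 of 14471 peaks (0.214%) reached it. At 3100 the intervals of the 2 sets overlap, so this count does not set them apart.

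The strongest peak of the 3 chromosomes lay near the short-arm tip of chromosome 4 (467300 to 468106). It scored 2196 over 807 bp, ranked 70 in the whole list, and lay 24.6 kb from its nearest neighbour. The next on this chromosome scored 1160 over 1582 bp (1872985 to 1874566), which was also the widest peak of chromosome 4, and had a neighbour 0.238 kb away. The third, at 39978075 to 39979259, scored 1059. Of the 10 strongest peaks of chromosome 4, with scores of 687.5 to 2196, 5 lay in the first 5 Mb of the span, none lay in the last 5 Mb, and 4 had a neighbour within 1 kb.

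Chromosome 13 had a single peak above 1000. It lay at 99228451 to 99230094, scored 1188 and, at 1644 bp, was the widest peak of all 3 chromosomes. It was followed by peaks at 27825497 to 27826310 (score 825.2) and 60970897 to 60972090 (score 776.4). The last lay between the empty stretches of the middle of the long arm, 232.3 kb from its nearest neighbour. Of its 10 strongest peaks, 3 lay in the end zones.

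On chromosome 18 the 10 strongest peaks lay closer together in score, from 504.1 to 775.4, and none of them lay in the end zones. The strongest was at 72264188 to 72264986, and the next were at 29672539 to 29673495 (score 691.1) and 61089691 to 61090369 (score 675.1). The fifth and sixth, at 48494226 to 48494903 (score 651.5) and 48556021 to 48557134 (score 602.3), were each other's nearest neighbour at 61.1 kb. Its widest peak measured 1273 bp (56530254 to 56531526) with a score of 496.3.

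Peaks were narrower on the gene-poor chromosomes. The median width was 415 bp on chromosome 4 (quartiles 304.2 and 606 bp), 411 bp on chromosome 13 (301 and 578 bp) and 412 bp on chromosome 18 (301.5 and 584 bp). Chromosomes 17, 19 and 22 had medians of 464 bp (338 and 680 bp), 475 bp (344 and 679.5 bp) and 436 bp (311.5 and 648 bp). Over the sets the medians were 412 and 464.5 bp, a ratio of 0.887, and the quartile ranges overlap widely. Peaks wider than 1200 bp numbered 13 of 730 (1.78%, 0.952% to 3.03%) against 97 of 2284 (4.25%, 3.46% to 5.16%). Over the whole list they numbered 672 of 14471 (4.64%), close to the share of the gene-rich set. Other autosomes also had narrow peaks, with a median of 411 bp on chromosome 10.

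Width and score go together in this list, with a Spearman correlation across peaks of 0.872 on chromosome 4 (n = 370), 0.887 on chromosome 13 (n = 209) and 0.868 on chromosome 18 (n = 151). These are descriptions across peaks of 1 library, and both values come from the same reads. Widths were therefore also given within classes of score. Among peaks scoring 50 to under 100, the median width was 307, 306 and 295 bp on chromosomes 4, 13 and 18, against 336, 339 and 311.5 bp on chromosomes 17, 19 and 22. From 100 to under 200 it was 486.5, 495 and 472 bp against 549, 532 and 520.5 bp. From 200 to under 500 it was 706.5, 695 and 669 bp against 748, 751 and 728 bp. In each of these 3 classes the 3 gene-poor chromosomes lay below the 3 gene-rich ones, by less than the distance between the quartiles of a class, such as 427 and 576 bp for the second class over the gene-poor set. Narrow peaks within a class were not limited to the gene-poor set. The lowest medians of the other 16 autosomes in these classes were 302.5 and 492.5 bp on chromosome 16 and 639.5 bp on chromosome 8. Chromosome X had 280, 441 and 611 bp, below all 3 gene-poor chromosomes. At scores of 500 or more, chromosome 4 with 1060 bp lay among the gene-rich chromosomes (996.5, 1008 and 1070 bp), while chromosomes 13 and 18 had 926 and 835 bp from 13 and 11 peaks.

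**Figure D5:**
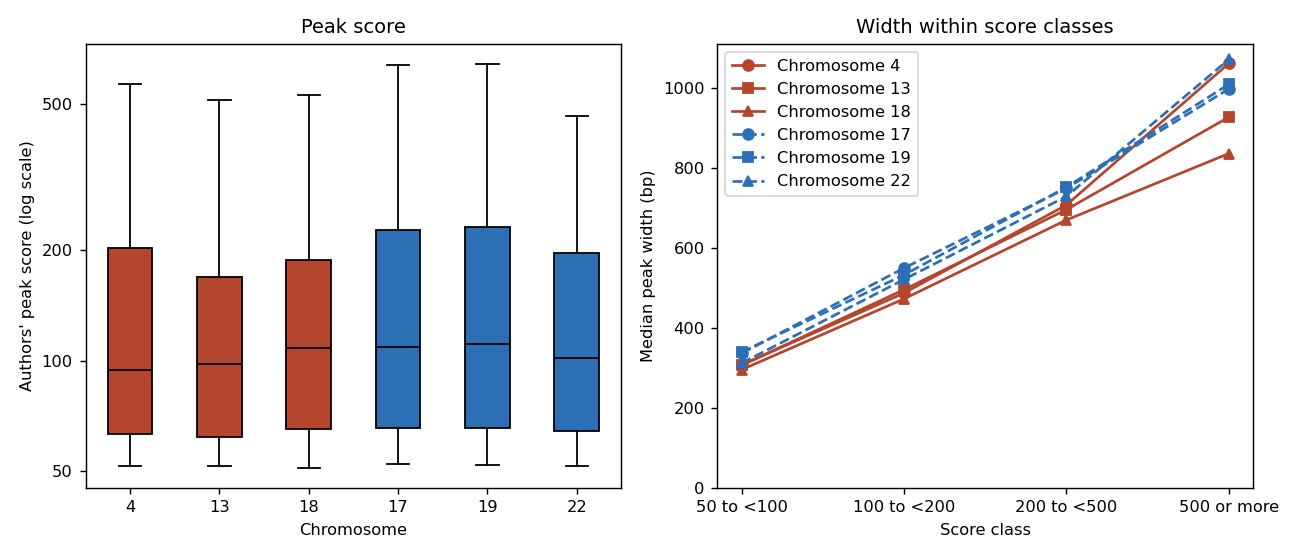
Left, the authors' peak score (log axis) per chromosome, with the median (line), the quartiles (box) and the 5th and 95th percentiles (whiskers). Right, the median peak width (bp) within 4 classes of score, for chromosomes 4, 13 and 18 (red, solid) and 17, 19 and 22 (blue, dashed); the red points lie below the blue ones in the first 3 classes, and at 500 or more chromosome 4 (1060 bp) lies among them.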

How the data were processed

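DAOY cells gave 2 ChIP-seq samples, a ZFX precipitation and an input, which were told apart by the labelled antibody. Per the submitters' processing notes, Bowtie2 2.0.0 and hg19 were used, with no role stated, and hg19 was taken as the build of the positions. Each peak is named MACS_peak in the file, and how peaks were called (version, threshold, control) was not given in the sources used here. The score of each peak is as the authors deposited it, with no stated unit. Starts were taken as counted from 0 and are printed counted from 1.

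Peaks were counted by midpoint in windows on whole Mb, and the outermost peaks served as chromosome ends. Gaps run from the end of a peak to the start of the next. No test was run. The functions recovered every planted value in 20 of 20 simulated chromosomes. Gene numbers per chromosome (19974 protein-coding genes on 23 chromosomes) came from RefSeq on GRCh38.p14, as counts only. No gene or sequence was placed on a peak, since the builds differ, so the 24 genes listed for naming and the planned share of peaks near transcription starts were not reported. Regions were named as the 10 strongest and 2 widest peaks, the 3 richest windows and the 3 longest stretches of each chromosome. The chromosomes, measures and lists were chosen with earlier results of these data known. Tables were made in Python 3.11.15 with pandas 2.3.3, intervals with scipy 1.17.1 and numpy 2.4.6, and plots with matplotlib 3.10.9.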

Additional observations from a re-analysis of the deposited data

How the results depend on the processing

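Ratios of the gene-poor to the gene-rich set kept their direction in all 78 alternatives run, 54 of which left out 1 of the 6 chromosomes, and 76 stayed within 1.5 times the reported value. Some of these could not move. The ratio of longest stretches stayed at 2.66 by construction when close peaks were joined or chromosome 4, 18, 19 or 22 was left out. No alternative set the end-zone share against the share of the span. Relative to the span, the end zones held 2.72 times an even spread over the gene-poor set and 1.57 times over the gene-rich set. This direction is opposite to that of the raw end-zone shares, whose ratio was 0.825. With stretches of 1 Mb or more left out of the length, the ratio of peaks per Mb was 0.369 in place of 0.152 (5.87 peaks per Mb in the gene-poor set). With 500 kb windows, the ratio of empty windows was 4.36 in place of 6.92, at 58.6% of windows empty, and with 5 Mb windows 8% were empty and no ratio was possible because no such window was empty on the gene-rich set. Among peaks above the median score, which drops peaks by construction, the gene-poor set had 0.927 peaks per Mb, 57.0% empty windows, a longest stretch of 18.3 Mb, a median gap of 311.3 kb and 14.5% of peaks with a neighbour within 1 kb. The end zones held 11.8% of peaks at 2 Mb, 35.5% at 10 Mb and 9.45% when the long-arm end alone was counted, again by construction. Leaving out chromosomes and the close-neighbour alternative were added after seeing the data. Shares within 1 kb or 5 kb of transcription starts were not run. No paired analysis was possible because 1 library has peaks. Since depth is unknown, an empty stretch cannot be told apart from one with sites too weak for this library.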
